A study of Mus musculus with 36 samples.

Results

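The 49 genes described here are the semaphorins, plexins, neuropilins, Slits, Robo receptors, netrins, netrin receptors, EphB receptors and ephrin-Bs named in a list of axon guidance genes, out of 55359 genes in the expression table. They comprise 17 semaphorins, 10 semaphorin receptors, 3 Slits, 3 Robo receptors, 2 netrins, 2 netrin-Gs, 5 netrin receptors, 4 EphB receptors and 3 ephrin-Bs. All 49 were found by symbol, and the rule is a list of gene names with no level in it. They were followed in 36 single neurons of the mouse midbrain, by tissue, by sibling pair and by the levels of Slc17a6 and of Gad1 and Gad2.

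The neurons came from 18 clones with 2 sequenced cells each. A clone is the progeny of 1 radial glia progenitor, marked on embryonic day 12 by MADM, a method in which recombination between chromosomes gives the daughters of a dividing cell different colours. The recombinase was driven by Fz10-CreER in 11 clones (22 cells, genotype label M11GTTG-Fz10-CreER) and by Sox2-CreER in 7 clones (14 cells, M11GTTG-Sox2-CreER), so that every cell, whatever its group, carried the M11GTTG alleles and a CreER. By tissue label, 22 cells of 16 clones were sSC and 12 cells of 11 clones were dSC, taken here as superficial and deep layers of the superior colliculus. The other 2 cells, both of Sox2-CreER clones, were PAG, taken as the periaqueductal grey. The labels give a mixed background and both sexes, name no animal and give no exact age for a sequenced cell. Only cells marked through these drivers on that day are represented, and several clones can share an animal.

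Semaphorins are secreted or membrane-bound ligands. The secreted class 3 semaphorins bind neuropilins, which signal with A-type plexins, and the membrane-bound class 6 semaphorins bind A-type plexins directly. Slits repel axons through Robo1 and Robo2. Robo3 is a divergent relative that is known for allowing commissural axons of the mouse embryo to cross the midline. Netrin-1 (Ntn1) attracts axons through Dcc and repels them through the Unc5 receptors, while the netrin-Gs are membrane-anchored adhesion proteins. EphB receptors bind ephrin-Bs on neighbouring cells, and in the superior colliculus this pair is known for placing retinal axons along the mediolateral axis of the map.

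Values are the authors' TPM of exon plus intron, a per-length signal that summed to 2000000 in every cell, and all levels below are on that scale. It keeps no read depth, so no counting error can be given, and a gene listed at 0 may have been missed rather than not expressed. The number of genes at 1 or more lay between 2661 and 16769 per cell, with a median of 12058. The lowest cell, B.2 (clone B, cell 2, sSC, Fz10-CreER), stood apart from the next one at 6180 genes and had the lowest summed level of 7 neuron markers, 558.7 against a median of 3890 over all cells. It also carried 10 oligodendrocyte markers at a summed 13190. Snap25, a synaptic protein gene of neurons, was listed between 299.8 and 4008 in all 36 cells. RNA of other cell types was present in many libraries: microglia markers summed to between 85.4 and 13910, and oligodendrocyte markers to between 1149 and 29070.

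Promoters of the 3 Robo genes are shown because Robo1 and Robo2 were broadly present while Robo3 was not. These genes also differ in length, at 737.8 kb for Robo1, 520.0 kb for Robo2 and 17.58 kb for Robo3. Detection went with gene length among the guidance genes, as given below, and the part of length in this contrast was not tested. The sequences run 5′ to 3′ from 250 bases before to 50 bases after the start of the RefSeq gene (build GRCm38.p6), on the plus strand of chr16:72662899-72663198 for Robo1, the minus strand of chr16:75447244-75447543 for the first of 3 Robo2 promoters, and the minus strand of chr9:37433126-37433425 for Robo3. Capitals mark TAATTA, a core motif of homeodomain factors.
Robo1: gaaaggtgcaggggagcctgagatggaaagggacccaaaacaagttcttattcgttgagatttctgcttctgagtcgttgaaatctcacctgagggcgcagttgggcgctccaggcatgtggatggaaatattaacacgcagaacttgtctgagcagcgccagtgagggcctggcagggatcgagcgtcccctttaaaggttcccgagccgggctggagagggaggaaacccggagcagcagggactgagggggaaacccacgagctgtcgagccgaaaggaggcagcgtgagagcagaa
Robo2: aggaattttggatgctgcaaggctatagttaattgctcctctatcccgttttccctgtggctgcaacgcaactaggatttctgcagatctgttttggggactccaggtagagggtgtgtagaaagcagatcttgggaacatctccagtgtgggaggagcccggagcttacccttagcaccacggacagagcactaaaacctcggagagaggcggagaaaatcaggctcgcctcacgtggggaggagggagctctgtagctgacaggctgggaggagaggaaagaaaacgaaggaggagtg
Robo3: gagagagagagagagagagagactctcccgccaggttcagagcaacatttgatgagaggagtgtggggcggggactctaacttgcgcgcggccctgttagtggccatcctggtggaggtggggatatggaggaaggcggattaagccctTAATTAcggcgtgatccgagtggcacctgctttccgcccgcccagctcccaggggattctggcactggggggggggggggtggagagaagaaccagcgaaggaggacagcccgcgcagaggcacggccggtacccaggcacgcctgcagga
The letters TAATTA, which read the same on both strands, stood 1 time in the Robo3 window and were not in the Robo1 window or in any of the 3 Robo2 windows. Of all 32851 promoters of this length in the table, 1738 (5.29%) held them, as did 1 of the 52 promoters found for 40 of the 49 guidance genes. CAGCTG, a form of the E-box that also reads the same on both strands, was in 16.3% of all promoters and in 6 of those 52, including the third Robo2 window, which is not shown. A match of letters is a description of the window and shows no binding.

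All 49 genes reached a level of 1 in at least 1 cell. A median of 10 or more was found for 12 genes, a median of 0 for 9, and 28 lay between. In 27 or more of the 36 cells, 15 genes were at 1 or more, and 3 genes (Robo3, Ntn1 and Ephb3) were at 1 or more in fewer than 9 cells. Single cells held between 5 of the 49 genes at 1 or more, in B.2, and 46, in Q.1 (sSC, Sox2-CreER). This number followed the number of genes detected in the cell (Spearman's rho 0.893 over 36 cells, a description, since both counts share the library). Genes of 300 kb or more, 13 of the 49, were at 1 or more in a median of 30 cells, and the 36 shorter ones in a median of 19. Across the 49 genes, the number of cells at 1 or more went with gene length at a rho of 0.455, against 0.213 across 18058 protein-coding genes. With exon length the rho over the 49 genes was 0.427. The values count reads in introns as well as exons, and the part of intron reads was not tested.

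**Figure D1:**
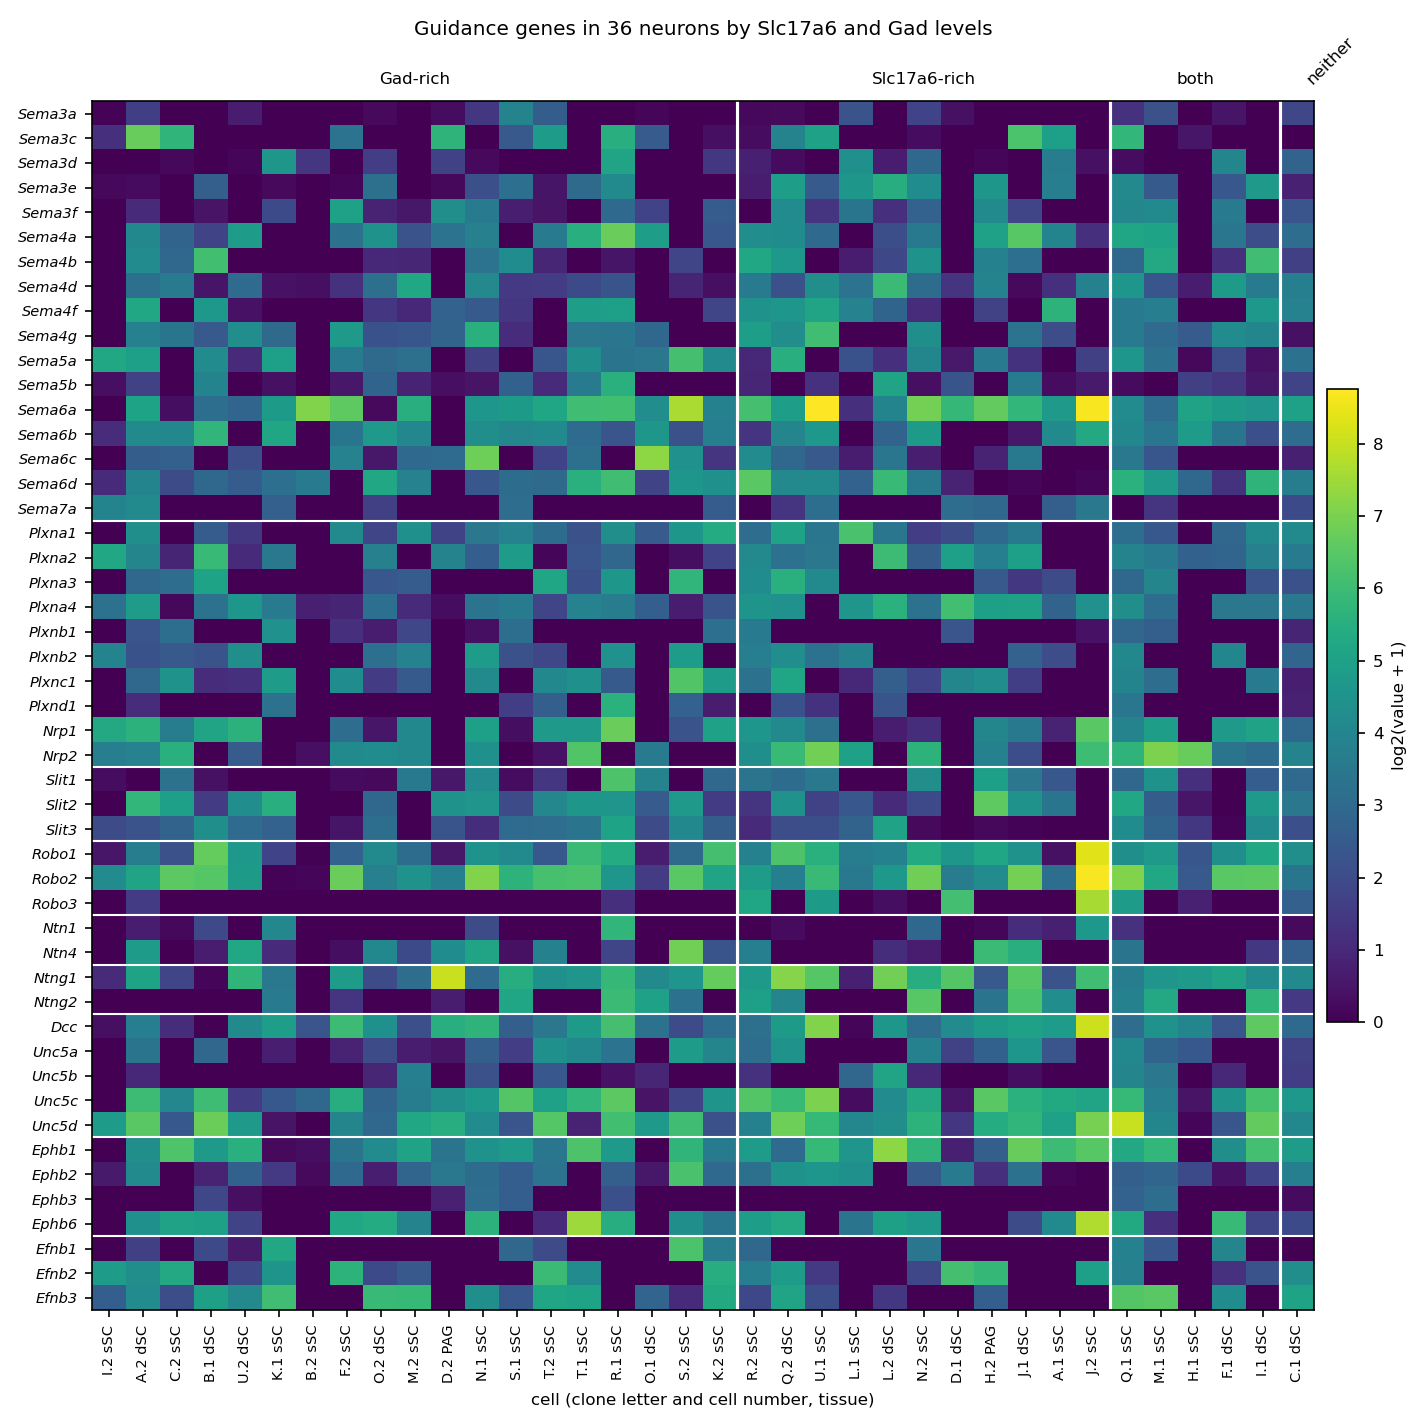
Level of each of the 49 guidance genes (rows, in the order of their roles) in each of the 36 neurons (columns, by clone letter, cell number and tissue), as log2(value + 1). Columns are grouped by Slc17a6 and Gad levels, and white lines part the groups and roles; Robo2 and Sema6a are present in most columns, and Robo3 in few.

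**Figure D2:**
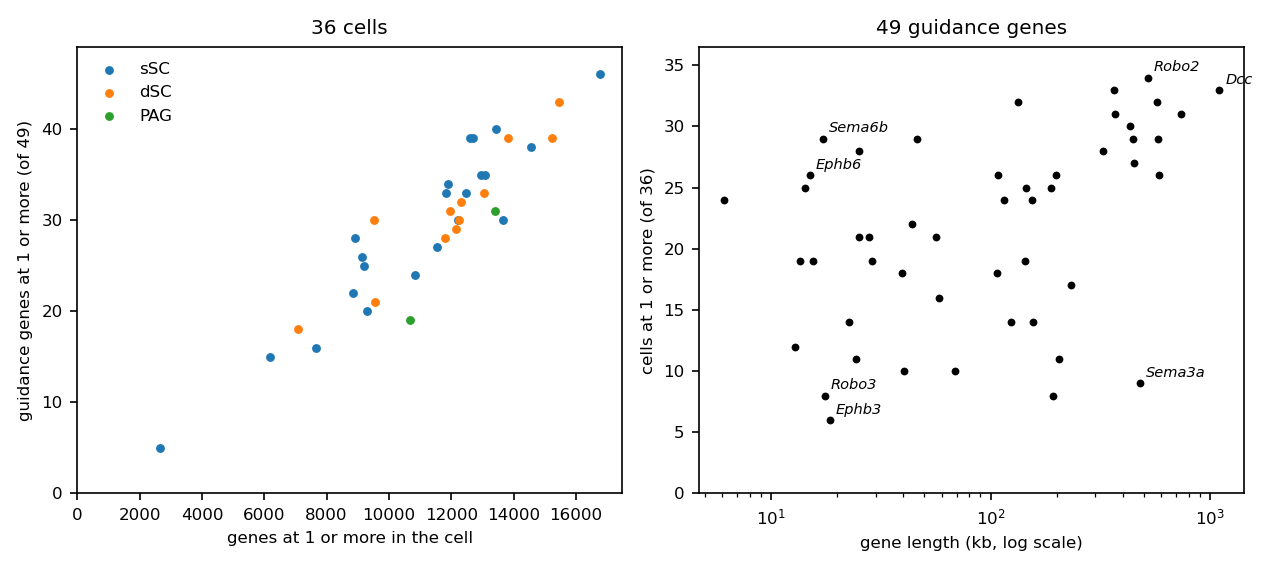
Left, the number of guidance genes at 1 or more in each cell against the number of all genes at 1 or more, coloured by tissue. Right, the number of cells at 1 or more for each guidance gene against its length on a log scale; Sema3a is long and was at 1 or more in 9 cells, and Sema6b is short and was so in 29.

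Among the ligands of plexins, Sema6a led. This membrane-bound semaphorin, known as a ligand of Plxna2 and Plxna4, had a median of 27.8 and was at 10 or more in 28 of 36 cells. It reached 430.9 in U.1 and 408.7 in J.2, both sSC cells of Fz10-CreER clones, and was listed at 0 in the lowest. Sema6b followed with a median of 11.3 and a highest value of 52.9, and Sema4a with a median of 8.80 and a highest value of 107.6 in R.1. The secreted class 3 semaphorins had low medians, from 0.0339 for Sema3a to 1.18 for Sema3f. Sema3e was at 10 or more in 9 cells and Sema3f in 8, beside 9 for the membrane-bound Sema4b and 7 for Sema6c. Sema3c, whose median was 0.105, was at 10 or more in 10 cells and reached 104.3 in A.2. Sema3a was at 10 or more in 1 cell, S.1, at 14.03. Sema7a, a membrane-anchored semaphorin, had a median of 0 and 3 cells at 10 or more.

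The semaphorin receptors were led by both neuropilins and by Plxna4. Nrp1 had a median of 12.98 (highest 105.9) and Nrp2 a median of 12.9 (highest 128.6), and each was at 10 or more in 20 cells. They were at 10 or more together in 12 cells, with 8 cells holding each of them without the other and 8 holding neither. Plxna4 had a median of 9.61 and reached 68.5 in D.1. A neuropilin was at 10 or more together with at least 1 A-type plexin in 24 cells, alone in 4 and absent at that level beside a plexin in 6. Plxnb1 and Plxnd1, of which Plxnd1 is a receptor for Sema3e, had medians of 0.

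Slit2 was the Slit with the highest median, 5.94, and reached 95.5 in the PAG cell H.2. Slit3 had a median of 3.53 and a highest value of 32.5, and Slit1 a median of 1.45 and a highest value of 79.0, both in R.1. Robo1 and Robo2 were more widely present than the Slits, and Robo3 less so. Robo2, with a median of 30.2 and 30 cells at 10 or more, had the highest median of the 49 genes, and Robo1 had a median of 17.8 and 24 cells at 10 or more. Both were at 10 or more in 23 cells, and a Slit was at 10 or more beside Robo1 or Robo2 in 21. A Slit stood without either in 2 cells, Robo1 or Robo2 without a Slit in 10, and neither in 3. The overlap that the separate counts alone would give was not worked out, for these or for the other ligands and receptors. Such counts describe cells and show no pairing.

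Robo3 (ENSMUSG00000032128 in the table) was listed at 0 in most cells and high in a few. It was at 192.4 in J.2, 69.9 in D.1, 35.6 in R.2, 27.04 in Q.1 and 26.2 in U.1. In C.1 it was at 5.40, and in no other cell was it above 2. The 5 cells at 10 or more belonged to 5 clones, 4 of them were sSC and 1 dSC, and both drivers were among them. In each of the 5 clones the sibling was at most 1.32, so no clone held Robo3 at 10 or more in both cells. No other annotated gene overlaps Robo3 in the annotation used.

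Of the netrins, Ntn4, a netrin of basement membranes, had a median of 0.845 and reached 116.8 in S.2. Ntn1 was at 10 or more in 3 cells, at 53.0 in R.1, 24.2 in J.2 and 15.4 in K.1. Ntng1 had a median of 22.7 and was highest, at 264.7, in the PAG cell D.2. Its relative Ntng2 had a median of 0 and reached 87.3 in N.2. At 10 or more, the netrin-Gs were together in 11 cells, Ntng1 stood without Ntng2 in 15, and Ntng2 without Ntng1 in 1. Among the netrin receptors, Unc5d (median 25.1, highest 257.5 in Q.1), Unc5c (median 24.7, highest 128.5 in U.1) and Dcc (median 15.9, highest 270.3 in J.2) led, and Unc5b had a median of 0. Dcc and Unc5c or Unc5d were at 10 or more in the same cell in 17 cells, and either Unc5 gene stood without Dcc in 14.

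Ephb1 was the leading EphB receptor, with a median of 25.3 and a highest value of 151.4 in L.2. Ephb6, whose kinase domain is inactive, had a median of 11.9 and reached 209.4 in J.2 and 177.5 in T.1, and Ephb2 had a median of 5.28. Ephb3 was at 10 or more in no cell and was highest in M.1 at 7.83. Of the ephrin-Bs, Efnb3 had a median of 4.68 and reached 91.3 in M.1. Efnb2 had a median of 2.83 (highest 70.3), and Efnb1 a median of 0 (highest 77.0 in S.2). One of Ephb1, Ephb2 and Ephb6 was at 10 or more beside an ephrin-B in 19 cells.

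Some cells held the highest value of many of these genes. R.1 and S.2, both sSC cells of Fz10-CreER clones, each held the highest value of 8 genes, and J.2 and L.2 of 5 each. J.2 had the highest summed level of the 49 genes, 2425, against 1463 in the next cell. It was highest in Robo1 (325.8), Robo2 (409.9), Robo3 (192.4), Dcc (270.3) and Ephb6 (209.4), and the 3 Slits were listed at 0 there. Its dSC sibling J.1 had Robo1 at 21.0, Robo2 at 121.9, Robo3 at 0, Dcc at 30.9 and Ephb6 at 2.96. J.2 also had the highest summed level of 5 oligodendrocyte precursor markers, 780.0 against a median of 10.3, of which C1ql1, a gene that some neurons express, gave 745.8 and Pdgfra, the defining one, 32.4. Cspg4 and Gpr17 were at 0 in it. S.2, highest in Efnb1, Ntn4, Plxnc1 (82.0) and Ephb2 (73.7), had the highest summed level of 10 vascular markers, 1248 against a median of 46.9, with Dcn, a gene of fibroblasts, at 1069 and Cldn5 at 91.3. R.1 had Pdgfra at 195.3 and Dcn at 107.6. The part of these other markers in the guidance values was not tested.

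By the levels of the transmitter genes, 19 cells of 14 clones had Gad1 or Gad2 at 100 or more with Slc17a6 under 100, and are called Gad-rich here. Another 11 cells of 9 clones had Slc17a6 at 100 or more with both Gad genes under it, and are called Slc17a6-rich. Slc17a6 encodes a vesicular glutamate transporter, and the Gad genes encode the enzymes that make GABA. In the remaining cells 5 had both and 1 had neither. The 2 groups were close in the number of genes detected, with a median of 11830 genes at 1 or more in Gad-rich and 11900 in Slc17a6-rich cells. Genes singled out below were chosen after their values were seen, and the counts are a description of cells with no test.

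Robo3 was at 10 or more in 0 of 19 Gad-rich cells, where its highest value was 1.95, and in 4 of 11 Slc17a6-rich cells. The fifth cell, Q.1, had both transmitter types. Of 30652 genes at 1 or more in any cell (Slc17a6, Gad1 and Gad2 left out), 22 (0.0718%) were likewise at 10 or more in at least 4 Slc17a6-rich and in no Gad-rich cell. That bound is the count of Robo3 itself, so Robo3 is among the 22 by construction. The total, here and in the shares below, includes genes too low to reach 10 in 4 cells. Most Slc17a6-rich cells were nonetheless without it, and the medians of both groups were 0. With the transmitter level set at 200, Q.1 counted as Gad-rich, and Robo3 was at 10 or more in 1 of 18 Gad-rich and 2 of 8 Slc17a6-rich cells.

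Sema3e, a secreted semaphorin, was between 0 and 16.7 in Gad-rich cells, with a median of 0.150, and between 0 and 42.5 in Slc17a6-rich cells, with a median of 12.6. It was at 10 or more in 1 of 19 Gad-rich and 6 of 11 Slc17a6-rich cells, and with the level at 200 in 2 of 18 Gad-rich and 4 of 8 Slc17a6-rich cells. Robo1, a Slit receptor, was at 10 or more in 9 of 19 Gad-rich and 10 of 11 Slc17a6-rich cells (medians 7.48 in Gad-rich and 23.7 in Slc17a6-rich cells), and Plxna4 in 6 of 19 Gad-rich and 8 of 11 Slc17a6-rich cells (medians 8.28 in Gad-rich and 21.99 in Slc17a6-rich cells). With the level at 200, Plxna4 was at 10 or more in 7 of 18 Gad-rich and 5 of 8 Slc17a6-rich cells, with medians of 8.81 in Gad-rich and 10.1 in Slc17a6-rich cells. Robo1 was then at 10 or more in 10 of 18 Gad-rich and 7 of 8 Slc17a6-rich cells. The ranges of all 3 genes overlapped between the groups. A share at 10 or more that was higher in Slc17a6-rich cells by over 40 percentage points, as for these 3, was found for 121 of the 30652 genes (0.395%). With the level at 200, none of the 3 kept a gap of over 40 percentage points.

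Efnb3 lay the other way. It was between 0 and 65.8 in Gad-rich cells, with a median of 16.4, and between 0 and 33.5 in Slc17a6-rich cells, with a median of 0. It was at 10 or more in 10 of 19 Gad-rich cells and in 1 of 11 Slc17a6-rich cells, Q.2. Of the 30652 genes, 79 (0.258%) were higher in Gad-rich cells by over 40 percentage points on this count, and Efnb3 was the one guidance gene among them. Slit2 had medians of 15.8 in Gad-rich and 2.77 in Slc17a6-rich cells, and Slit3 of 5.75 in Gad-rich and 0.161 in Slc17a6-rich cells.

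**Figure D3:**
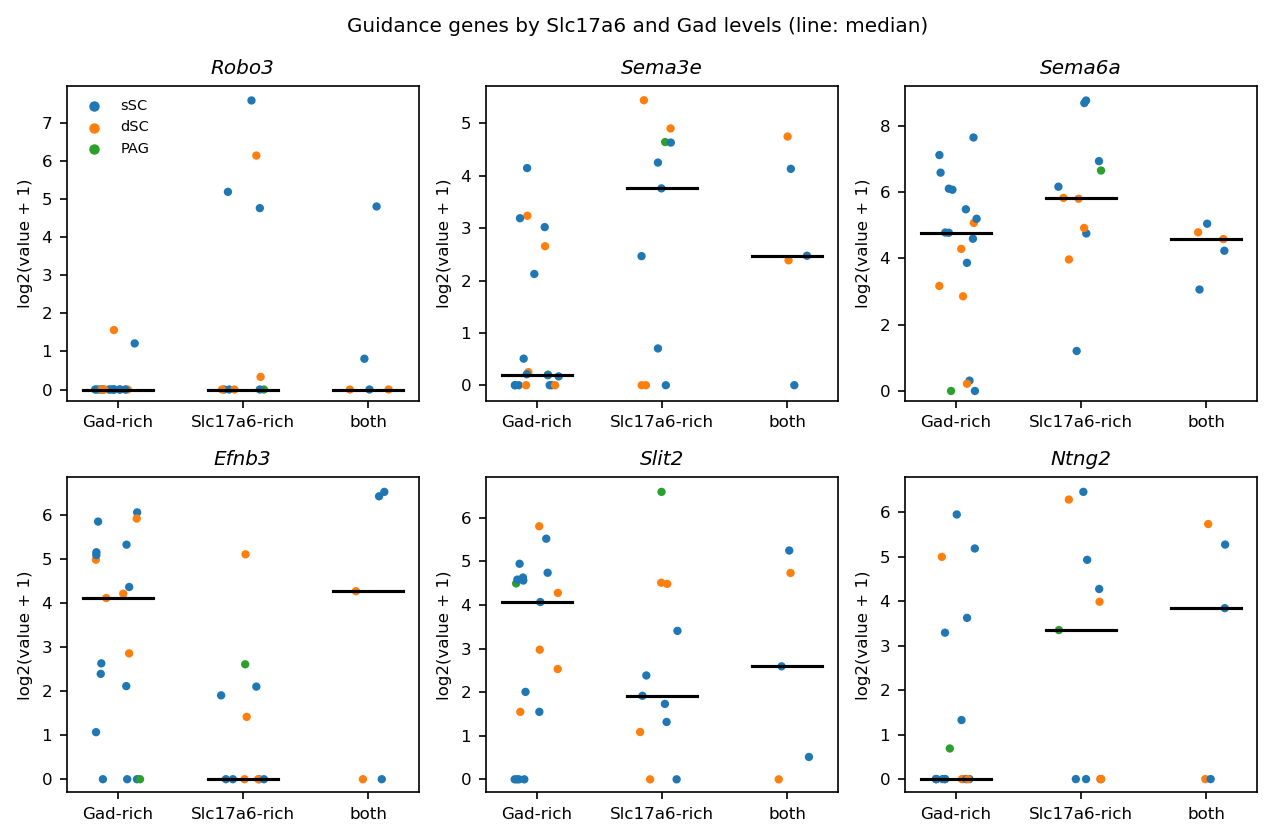
Robo3, Sema3e, Sema6a, Efnb3, Slit2 and Ntng2 in Gad-rich cells, Slc17a6-rich cells and cells with both (19, 11 and 5 points, coloured by tissue), as log2(value + 1) with the median as a line. Robo3 points above 2 on this axis occur in the Slc17a6-rich cells and in 1 cell with both, and the groups overlap in every panel.

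In 5 clones (A, D, N, R and U) 1 sibling was Gad-rich and the other Slc17a6-rich, so that both cells came from 1 progenitor. In clones A, D and U the siblings also differed in tissue: the Gad-rich cell was dSC, PAG and dSC, and the Slc17a6-rich cell sSC, dSC and sSC, so transmitter level and tissue cannot be told apart there. The Gad-rich sibling had more genes at 1 or more in clones A (15472 against 10821), D (10661 against 7095) and N (14555 against 12952). The counts were close in R (12594 against 12711) and U (11807 against 11898). Slit2 was higher in the Gad-rich sibling in 5 of 5, at 54.9, 21.5, 22.9, 22.6 and 18.4 in clones A, D, N, R and U, against 9.59, 0, 2.77, 1.49 and 2.32 in their Slc17a6-rich siblings. Slit3 and Sema4a were also higher in the Gad-rich sibling in 5 of 5. These 3 of 46 genes stand beside 612 of 14902 genes (4.11%) with that pattern, and none of the 46 was among the 126 genes (0.846%) higher in the Slc17a6-rich sibling in all 5. Sema6a was higher in the Slc17a6-rich sibling in 4 of 5, with 430.9 in U.1 beside 6.23 in U.2 as the widest gap. Clone R was close to a tie, at 70.4 in R.2 beside 67.5 in R.1. Sema6d and Ephb1 were also higher in the Slc17a6-rich sibling in 4 of 5. Sema3f, Plxnb2, Nrp1, Ntn4, Ephb3 and Ephb6 were higher in the Gad-rich sibling in 4 of 5. How many of all genes had 4 of 5 was not counted. Robo3 was higher in the Slc17a6-rich sibling in 3, in the Gad-rich sibling in 1 (1.95 in A.2 beside 0 in A.1) and 0 in both in 1.

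The test that bears on these patterns used sibling differences in all 18 clones. The balance of a cell was its Slc17a6 level on the log2(value + 1) scale, subtracted from the average level of the GABA genes (Gad1, Gad2 and the vesicular transporter Slc32a1), and the slope of each gene on it was fitted with limma, with clone as a block and tissue as a covariate. Of 14898 genes, 1 (0.00671%) passed at an adjusted p of 0.05, and none of the 46 guidance genes tested did (smallest adjusted p 0.912). At an unadjusted p under 0.05 stood 3 of the 46, beside 653 genes (4.38%) overall. The slopes were positive, that is higher with a more GABAergic balance, for 21 and negative for 25, with a median of -0.009 against 0.005 over all genes. Slopes are in log2 units per log2 unit of balance. The slope with the smallest p was that of Sema6a, -0.26 (SE 0.0941), which was -0.04 in the 6 clones with both cells in sSC. Sema3e had -0.20 (SE 0.0806), Ntng2 -0.24 (SE 0.103) and Slit1 -0.15 (SE 0.077), and in those sSC clones they had -0.09, -0.37 and -0.07. On the positive side, Ntn4 had 0.17 (SE 0.101), Sema3c 0.15 (SE 0.105), Efnb3 0.13 (SE 0.0854) and Plxnb2, a receptor of class 4 semaphorins, 0.13 (SE 0.0912). In the sSC clones Efnb3 had 0.21 and Plxnb2 0.40. The other genes set out above by transmitter level had small slopes against their errors: Slit2 0.08 (SE 0.0886), Slit3 0.09 (SE 0.0801), Robo1 -0.11 (SE 0.0981), Plxna4 -0.02 (SE 0.0856) and Sema4a -0.01 (SE 0.078). The sign for Sema4a is opposite to its 5 of 5 clones. Robo3 was under the filter on low values, and in a fit without that filter its slope was -0.12 (SE 0.0903, adjusted p 0.994 by limma).

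Between the tissues, 2 A-type plexins lay lower in sSC than in dSC, but neither passed the test across all genes. Plxna4 was between 0 and 22.7 in the 22 sSC cells (median 8.33) and between 5.15 and 68.5 in the 12 dSC cells (median 15.4), so every dSC cell held it while 6 of 22 sSC cells were under 1. Plxna2 was between 0 and 36.1 in sSC (median 4.50) and between 0 and 62.7 in dSC (median 13.1). In both genes the tissues overlapped.

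As means per clone, Plxna4 averaged 2.42 ± 1.62 in sSC and 4.29 ± 1.04 in dSC on the log2(value + 1) scale (SD, n = 16 and n = 11), a difference of -1.87 (SE 0.665) that did not pass in limma with Benjamini-Hochberg adjustment over all genes (adjusted p 0.933). Plxna2 averaged 1.91 ± 1.67 in sSC and 3.84 ± 1.55 in dSC, a difference of -1.93 (SE 0.708; limma adjusted p 0.933). Only the 6 clones with both cells in sSC and the 1 with both in dSC averaged 2 cells. Every other mean was 1 cell, so these SDs and SEs include spread between single cells. In the 9 clones that spanned both layers, Plxna4 was lower in the sSC sibling in 9 of 9 and Plxna2 in 6 of 9. Clone B, whose sSC cell is the low library B.2, is among these. How many of all genes were lower in 9 of 9 was not counted, but with clone as a block only 23.1% of all genes were higher in sSC. Between the clone means, Plxna4 was at -0.94 and Plxna2 at -1.47 after quantile normalization, and at -1.76 and -1.80 without B.2. Within Fz10-CreER clones the differences were -1.77 for Plxna4 and -2.40 for Plxna2, and within Sox2-CreER clones -2.10 for Plxna4 and -1.04 for Plxna2. Plxna4 overlaps 3 annotated genes on the opposite strand, and the use of strand is not given in the sources used here, so reads of both cannot be told apart.

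Of 14613 genes, 0 (0%) passed when sSC was set against dSC. An unadjusted p under 0.05 was found for 754 of them (5.16%), and for 3 of the 46 guidance genes. The third was Sema5b, at -1.18 (SE 0.542). Sema4b, a membrane-bound semaphorin, followed at -1.44 (SE 0.743). Its difference was -2.39 within Fz10-CreER clones but 0.39 within Sox2-CreER clones (5 sSC and 4 dSC means). The positive differences of smallest p were those of Nrp2 at 1.16 (SE 0.88), Plxnb1 at 0.55 (SE 0.482), Slit1 at 0.50 (SE 0.671) and Sema6b at 0.53 (SE 0.75). In all, 14 guidance genes were higher and 32 lower in sSC (median difference -0.18), a split that turned to 31 higher and 15 lower with the number of detected genes as a covariate and to 25 and 21 after quantile normalization. Over all genes 32.7% were higher (median -0.31), and 28 of the 46 guidance genes lay above that median. Without B.2 the split was 19 higher and 27 lower. Microglia markers lay lower in sSC too, 9 of 10 with a median difference of -1.14 and none past the threshold. Their summed level was between 136.3 and 13910 (median 1827) in sSC cells and between 85.4 and 13170 (median 3245) in dSC cells, and no marker of the list was at 0 throughout either tissue. Their part in the guidance values was not tested. With clone as a block, 1 gene of 14613 (0.00684%) and none of the 46 passed (smallest adjusted p of a guidance gene 0.35), and 9 were higher and 37 lower in sSC, with a median of -0.70 against -0.66 over all genes. In that fit Slit1 was at 0.01 and Sema6b at 0.11, so these differences were close to 0 when siblings were paired, while Sema4b was at -2.49. Ntng1 was at -2.0 (SE 0.78) there, beside -1.88 (SE 0.73) for Plxna4. It was lower in the sSC sibling in 8 of 9 clones, so the A-type plexins were not alone in this.

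**Figure D4:**
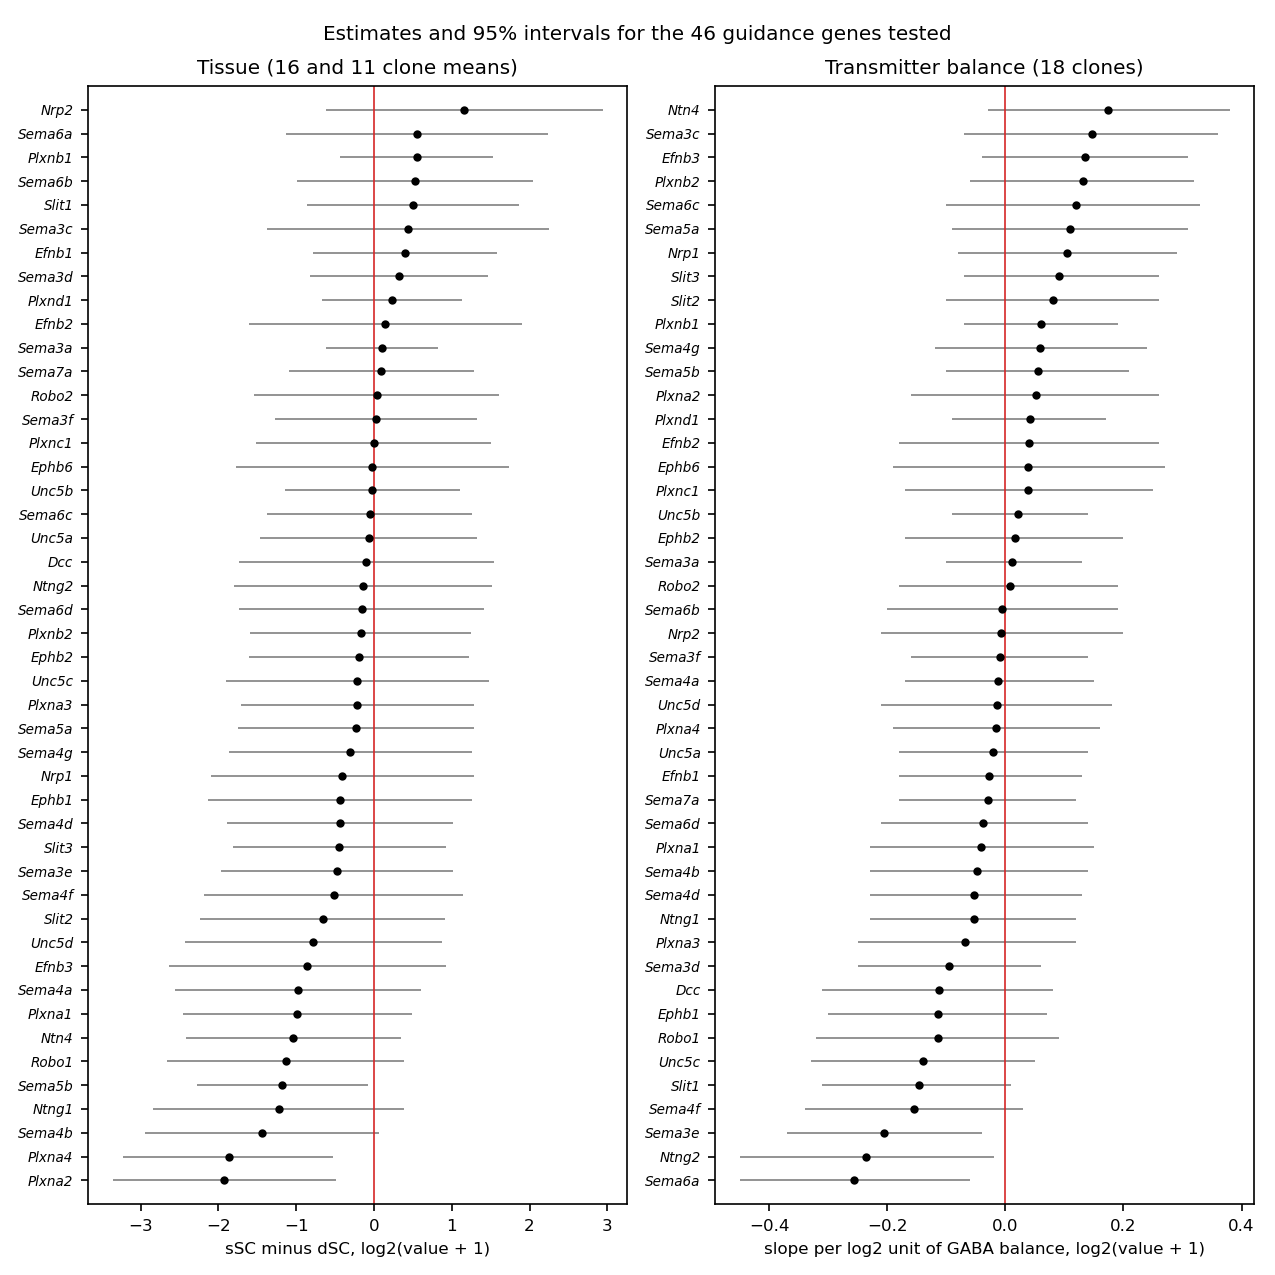
Estimate and 95% interval of each of the 46 guidance genes tested, as sSC minus dSC (left) and as the slope on transmitter balance, positive where higher with a more GABAergic balance (right), in log2(value + 1). Plxna2, Plxna4 and Sema5b at the bottom left, and Sema6a, Ntng2 and Sema3e at the bottom right, have intervals below 0 before adjustment over all genes.

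The 2 PAG cells were left out of the tissue test. Slit2 was at 21.5 and 95.5 in them, Ntn4 at 18.2 and 62.2, and Dcc at 43.5 and 26.01 (D.2 before H.2 in each). Sema6b, Ephb6, Efnb1, Robo3, Unc5b and Plxnb1 were listed at 0 in both. With 2 cells no comparison was made.

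The drivers were compared to see whether clones marked through Fz10 and through Sox2 differ, with 1 mean per clone over its sSC and dSC cells and the share of sSC cells as a covariate. No gene passed (0 of 14613, 0%), and 2 of the 46 guidance genes were at an unadjusted p under 0.05, beside 479 genes (3.28%). Nrp2 averaged 2.47 ± 1.80 in Fz10-CreER clones and 4.40 ± 2.20 in Sox2-CreER clones (SD, n = 11 and n = 7), a fitted difference of -2.07 (SE 0.926; limma adjusted p 0.999). Sema3f, a class 3 semaphorin known to bind Nrp2, averaged 0.92 ± 0.80 in Fz10-CreER and 2.19 ± 1.81 in Sox2-CreER clones, a difference of -1.35 (SE 0.651; limma adjusted p 0.999). Sema4g (-1.07) and Sema6b (-0.88) lay in the same direction, and without the library B.2 Sema6b was at -0.47. On the positive side were Ephb1 at 1.53 (SE 0.878), Sema4f at 1.14, Slit2 at 1.12 and Slit3 at 1.11. In sSC cells alone these were smaller, with Ephb1 at 0.39, Sema4f at 0.58, Slit2 at 0.36 and Slit3 at 0.36, while Sema3f was at -2.11 and Sema4g at -1.93. Of the 46, 24 were higher and 22 lower in Fz10-CreER clones, with a median of 0.01 against 0.04 over all genes.

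Siblings were compared to see which guidance genes cells of 1 progenitor share. In 16 clones with both cells in sSC or dSC, limma's moderated F test of the clone term, adjusted for tissue, called 3 of 15132 genes (0.0198%) and none of 47 guidance genes. At an unadjusted p under 0.05 stood 3 of the 47, beside 1180 genes (7.8%) overall. Efnb3 had the smallest p (F 2.36, limma adjusted p 0.585), followed by Unc5b and Sema4a (F 2.14 each) and Ntng1 (F 2.04, and 1.32 without the library B.2). Sema4a was at F 1.29 with the number of genes detected as a covariate and at 1.49 after quantile normalization. In the same fits Efnb3 was at 2.057 and 2.225, Unc5b at 2.029 and 3.365, and Ntng1 at 1.852 and 1.506. The sibling correlations of these genes, given as descriptions over 16 clones, were 0.409 for Efnb3, 0.477 for Unc5b, 0.539 for Sema4a and 0.328 for Ntng1. The median over the guidance genes was 0.04, against 0.01 over all genes.

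Over all 18 clones, the 2 with a PAG cell included, there were pairs that shared a level and pairs that did not. Efnb3 was at 65.8 and 39.2 in clone K, 91.3 and 56.8 in clone M, 33.1 and 34.7 in clone T, and 85.1 and 33.5 in clone Q. It was listed at 0 in both cells of clones D and J, while in clone N the cells were at 19.6 and 0. Over the 18 clones, Efnb3 was at 10 or more in both cells of 4, in 1 cell of 7 and in no cell of 7. Sema4a reached 10 in both cells of 6 clones, and in 8 clones it reached 10 in no cell. Unc5b was at 10.1 and 12.6 in clone M and at 6.48 and 33.6 in clone L, but at 14.8 and 0 in clone Q, and it was under 5 in every other cell. Robo2 was at 10 or more in both siblings of 12 clones and in 1 sibling of the other 6, and Sema6a in both of 10 and in 1 of the other 8. Ntn4 was at 10 or more in 1 sibling of 10 clones and in both of 0, and differed between siblings by a median of 3.61 on the log2 scale. That gap was 1.43 for Robo2.

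**Figure D5:**
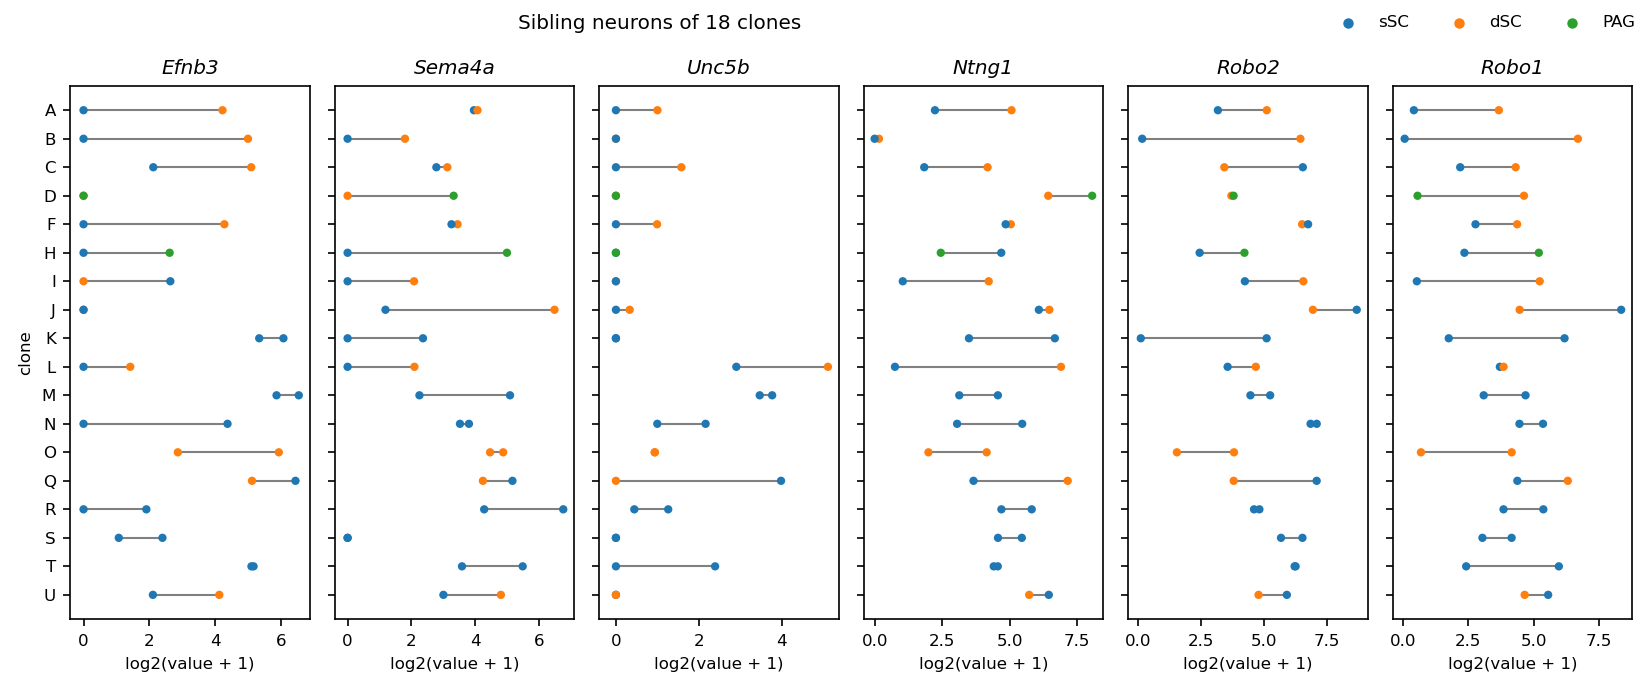
Values of Efnb3, Sema4a, Unc5b, Ntng1, Robo2 and Robo1 in the 2 siblings (points, coloured by tissue, joined by a line) of each of the 18 clones, as log2(value + 1). Short lines far from 0, as for Efnb3 in clones K, M and T, are pairs that share a high level, and clone J holds the highest Robo1 and Robo2 points.

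The genes that act downstream of these ligands and receptors were counted as 4 lists. Of 16 measured effectors of semaphorins and plexins, such as collapsin response mediators and Micals, 4 were higher and 12 lower in sSC than in dSC, beside 32.7% of all genes higher. Of 10 Slit and Robo effectors 4 were higher and 6 lower, of 15 netrin, Unc5 and netrin-G partners 4 higher and 11 lower, and of 9 EphB and ephrin-B effectors 4 higher and 5 lower. With clone as a block the lists had 2 higher and 14 lower, 1 and 9, 2 and 13, and 1 and 8, beside 23.1% of all genes higher. With a more GABAergic balance, 10 semaphorin and plexin effectors were higher and 6 lower, 7 Slit and Robo effectors higher and 3 lower, 8 netrin partners higher and 7 lower, and 4 EphB effectors higher and 5 lower. In Fz10-CreER against Sox2-CreER clones these counts were 9 higher and 7 lower, 5 and 5, 9 and 6, and 5 and 4. None of them passed the threshold in any of the 4 fits.

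Across the 36 cells, the 1035 pairs of the 46 guidance genes had a median Spearman's rho of 0.139, as descriptions over cells that share clones and differ in depth. The highest rho values were Sema3e with Sema4f at 0.663 and Plxna1 with Ephb2 at 0.634, and the lowest was Sema6a with Slit3 at -0.408. Without J.2 these were 0.646, 0.611 and -0.366.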

How the data were processed

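Single neurons were sequenced from polyadenylated RNA (SMART-Seq Single Cell PLUS, per the labels' protocols). The submitters' processing notes list STAR 2.7.9a, R 4.0.3 and GRCm39. Counting program, annotation and strand use: not given in the sources used here. What the authors deposited is a signal per gene and cell, named TPM of exon plus intron, that sums to 2000000 in each cell, and depth is unknown. Tests planned for plain TPM, on a log scale, were kept. GENCODE M21, made on an older build, gave symbols, lengths and overlaps, and 52083 of 55359 identifiers matched once their version was dropped.

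limma 3.58.1 (R 4.3.3; eBayes with trend and robust, Benjamini-Hochberg over all genes, threshold 0.05) was run on log2(value + 1), which understates differences of low genes, over genes that reached 1 in 25% or more of the cells compared. The main tissue fit averaged cells within clone and tissue with no clone term, so the 9 clones with both layers entered on both sides, unpaired. The driver fit used 1 mean per clone. The clone and balance fits, and the tissue fit with clone as a block, used single cells with a term for clone. Siblings descend from 1 progenitor, hence from 1 animal, which pairs them by design. Since no animals are named, clone, animal and collection cannot be told apart. The p-values of the main tissue and driver fits measure spread among clones. In the tissue fit most of the means were 1 cell, so that spread includes the spread between single cells. Those of the balance fit and of the tissue fit with clone as a block measure spread of sibling differences. Those of the clone fit set differences between clones against the spread between siblings. Levels of 1 (present), 10 (clearly present) and 100 (transmitter genes; 50 and 200 were also tried) were used as cut points. The fits were tested on simulated data. Alternatives were other pseudocounts and filters, quantile normalization, the number of genes detected, clone blocks and left-out libraries.

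The guidance genes, lists and tests were chosen with earlier results of these data known. Genes with values are the 4 per direction of smallest p in each fit and the 3 of highest median per role. The others, shown by transmitter level, PAG cell, sibling pair or cell of highest value, were chosen after their values were seen. Promoters are from RefSeq on GRCm38.p6. Descriptions and figures were made in Python 3.11.15 (numpy 2.4.6; pandas 2.3.3; matplotlib 3.10.9).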

Additional observations from a re-analysis of the deposited data

Results flagged for a closer look

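Sema6b, as a mean per clone on the log2(value + 1) scale, was 0.0 in clone D, while the other 6 Sox2-CreER clones lay between 3.39 and 4.85. The gap was wide enough to set clone D apart from its group by Dixon's criterion. Its value rests on 1 dSC cell, since the sibling is a PAG cell, which also had Sema6b listed at 0. Chance sets apart about 1 in 20 groups, and 8 groups were checked.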

How the results depend on the processing

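No guidance gene passed the threshold in any alternative: the smallest adjusted p by limma lay between 0.35 and 1.0 over 9 settings for tissue, 0.779 and 1.0 over 8 for driver, 0.505 and 0.861 over 7 for clone, and 0.514 and 0.999 over 11 for balance. The genes named in the tissue, driver and balance fits kept their direction in all 64, 56 and 80 alternative values, though some came close to 0 (Slit1 for tissue with siblings paired, Sema6a for balance in sSC clones). A split of the tissue difference by driver was not among these alternatives, and in it Sema4b was at 0.39 in Sox2-CreER clones. Of all genes, the sSC minus dSC fit called 1 with a pseudocount of 10, 1 with quantile normalization and 1 with clone as a replicate block, where siblings are paired, against 0 without. The clone fit called 6 with a pseudocount of 0.1 and 60 with no filter, against 3. The balance fit called 0 with a pseudocount of 0.1, with no filter, with Slc17a6 alone or in sSC clones only, 2 after quantile normalization, 5 when the number of genes detected was a covariate, 7 with a pseudocount of 10 and 12 with no replicate block, against 1. The cause was not tested. With a transmitter level of 200, Robo3 was at 10 or more in 1 Gad-rich and 2 Slc17a6-rich cells and Sema3e in 2 Gad-rich cells; with 50, Sema3e was so in 0 Gad-rich and Efnb3 in 0 Slc17a6-rich cells. Without B.2, an alternative chosen after seeing the data, the counts of these 3 genes were as before. The median sSC minus dSC difference of all genes was -0.14 after quantile normalization and 0.07 when the number of genes detected was a covariate, against -0.31. Unknown depth limits every statement on genes listed at 0.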
